A study of Homo sapiens with 74 samples.

Results

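The BCL2 family of apoptosis regulators was followed here as a set of 10 genes, BCL2, BCL2L1, MCL1, BAX, BAK1, BCL2L11, BID, BAD, BBC3 and PMAIP1, taken by symbol from the gene count tables. All 10 were listed among the 28131 genes of each table, and all 10 passed the filter on low counts in every comparison. They were taken as named members of the family, and no measured value enters the rule. The choice of members was made with earlier results of these data known. The study addresses how the complex around DOT1L, the enzyme that methylates lysine 79 of histone H3, acts on transcription in human cells. Polyadenylated RNA was sequenced in the established human leukaemia lines K562 and HEL, which have erythroid features. The K562 libraries came from wild type cells, the controls (2 distinct libraries), from DOT1L-/- cells, called DOT1L KO (3 libraries), and from ENL-/- cells, called ENL KO (3 libraries), where ENL is the histone-reading partner of DOT1L complexes encoded by MLLT1. The HEL libraries came from control cells (2 libraries) and from cells with a DOT1L knockdown, called DOT1L KD (2 libraries). The labels do not say how the genes were disrupted, whether a knockout was 1 clone, or whether libraries of a group came from separate cultures, so p-values measure only the spread between these libraries, which may be technical.

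The family decides whether the mitochondrial outer membrane is opened during apoptosis. The guardians BCL2, BCL2L1 (BCL-XL) and MCL1 hold the effectors BAX and BAK1 in check, and the effectors form pores that release cytochrome c and lead to caspase activation. The BH3-only proteins BCL2L11 (BIM), BID, BAD, BBC3 (PUMA) and PMAIP1 (NOXA) sense stress and either block guardians or activate effectors. In erythroid cells BCL2L1 is known as a main survival factor, and MCL1 protein is short-lived, so that its transcript level bears on its supply. Transcripts alone were measured here, per gene and not per isoform, so the long and short forms of BCL2L1, MCL1 and BCL2L11 were not told apart.

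Libraries held 15404944 to 29236703 counted fragments in K562 and 12151495 to 12811688 counted reads in HEL. Control columns 2 and 3 of K562 were identical over all genes and were counted as 1 library. DOT1L transcripts stood at 270 and 256 CPM (TMM-scaled counts relative to library size) in the K562 controls and at 186, 176 and 184 CPM in the DOT1L KO libraries, and at 97.5 and 87.4 CPM in the HEL controls against 29.1 and 30 CPM in the HEL DOT1L KD libraries. MLLT1 stood at 214 and 219 CPM in the K562 controls and at 153, 157 and 154 CPM in the ENL KO libraries. The targeted transcripts were therefore lower in the groups named for them, and not absent. All 12 erythroid markers on the list checked had counts in every group, and their summed level was 6996 to 7543 CPM in K562 controls, 11107 to 11687 CPM in DOT1L KO, 9183 to 9422 CPM in ENL KO, 7117 to 7240 CPM in HEL controls and 9707 to 10383 CPM in HEL DOT1L KD. Megakaryocytic markers summed to 7.76 to 10.5 CPM in K562 controls, with GP9, GP1BA, GP1BB, PF4 and VWF among those at 0, to 34.1 to 36 CPM in DOT1L KO and to 29.9 to 37.4 CPM in ENL KO. In HEL they summed to 2619 to 2673 CPM in controls and 2078 to 2082 CPM in DOT1L KD. Lymphocyte markers summed to 54 to 55.6, 17.4 to 21.8 and 62.2 to 73.2 CPM in the K562 controls, DOT1L KO and ENL KO. Most of that was CD3D alone, at means of 51.9, 17.4 and 66 CPM. Monocyte markers summed to no more than 3.5 CPM in any library. Fibroblast and epithelial markers summed to 214 to 257 CPM in K562 and no more than 0.239 CPM in HEL. In K562 most of that was KRT19 alone, at means of 215, 231 and 242 CPM in controls, DOT1L KO and ENL KO. In DOT1L KO 11 of the 12 erythroid markers rose and 1 fell, in ENL KO 9 rose and 1 fell, and in HEL DOT1L KD 10 rose and 0 fell. These markers, which include the near-identical copies HBG1 and HBG2, moved with each comparison with a control below, and their part in the results was not tested. Fewer cells of a type and less RNA per cell cannot be told apart in such bulk libraries.

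Promoter windows of 300 bases, from 250 before to 50 after a transcription start site, were read from RefSeq (GRCh38.p14) for 9 of the 10 members. Windows of 4 members are shown. That of BCL2 was taken because its transcript fell most among the members after DOT1L depletion in both lines. The window of PMAIP1 was taken because its transcript moved in opposite directions in the knockouts. The window of BAK1 was taken because its transcript fell in both lines upon DOT1L depletion. That of BCL2L1 was taken because it alone held a match to TATAAA. Capitals mark a match to the letters of a TATA box (TATAAA) or a GC box (GGGCGG), and a box here means such a match anywhere in the window. Both strands were searched, so that TTTATA and CCGCCC count as matches too. The letters run 5′ to 3′ along the strand of the gene.

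BCL2 (chr18:63319720-63320019, minus strand, no match): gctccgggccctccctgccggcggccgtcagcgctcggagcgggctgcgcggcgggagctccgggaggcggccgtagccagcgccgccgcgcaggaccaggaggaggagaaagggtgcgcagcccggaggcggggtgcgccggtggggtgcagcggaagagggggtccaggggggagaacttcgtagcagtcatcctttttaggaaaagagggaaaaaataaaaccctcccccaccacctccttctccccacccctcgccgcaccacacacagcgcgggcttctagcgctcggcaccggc

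PMAIP1 (chr18:59899746-59900045, plus strand, 4 GC boxes): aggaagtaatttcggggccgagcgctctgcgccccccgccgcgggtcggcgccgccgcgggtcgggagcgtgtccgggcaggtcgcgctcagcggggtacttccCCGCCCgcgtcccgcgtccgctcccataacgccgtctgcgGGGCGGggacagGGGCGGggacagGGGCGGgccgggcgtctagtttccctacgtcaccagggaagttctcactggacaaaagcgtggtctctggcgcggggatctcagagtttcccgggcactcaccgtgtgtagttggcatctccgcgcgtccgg

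BAK1 (chr6:33580227-33580526, minus strand, 2 GC boxes): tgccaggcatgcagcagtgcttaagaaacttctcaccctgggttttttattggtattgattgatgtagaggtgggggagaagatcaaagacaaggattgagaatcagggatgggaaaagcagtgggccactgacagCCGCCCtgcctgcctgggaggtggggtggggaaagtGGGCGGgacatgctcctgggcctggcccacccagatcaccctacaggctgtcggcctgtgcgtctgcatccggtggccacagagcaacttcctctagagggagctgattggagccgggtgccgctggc

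BCL2L1 (chr20:31723914-31724213, minus strand, 2 TATA boxes): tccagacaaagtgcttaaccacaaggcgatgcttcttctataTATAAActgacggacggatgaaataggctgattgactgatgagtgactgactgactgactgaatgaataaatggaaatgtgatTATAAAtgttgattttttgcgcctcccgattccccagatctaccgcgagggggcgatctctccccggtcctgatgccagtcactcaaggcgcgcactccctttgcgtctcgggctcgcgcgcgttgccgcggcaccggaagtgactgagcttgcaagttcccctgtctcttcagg

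The BCL2 window was 70.7% G or C and held neither motif. On the minus strand it lies before the counted exons of BCL2, which begin at 63319380. A start at that position was not searched. The PMAIP1 window, 71.3% G or C, held 4 GC boxes, the most of any member together with BID. The BAK1 window was 58.7% G or C, equal to the median of all windows in the table. BCL2L1 was the 1 member with a match to TATAAA, in 1 of its 2 windows, at 208 and 125 bases before the start. Whether these letters act as a TATA box was not tested. Over all 15 windows of the members, 11 held a GC box and 1 held a TATA box. Among 35116 windows of the whole table the shares were 45.0% and 11.5%, and among the 15438 windows of genes tested in K562 they were 65.1% and 6.43%. These matches are descriptions of the letters in the windows.

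To compare members within a library, counts were scaled to CPM with TMM factors, which equalise libraries over most genes, and divided by exonic length in kilobases. In the K562 controls MCL1 (84.4 ± 0.17 CPM per kb, SD, n = 2) and BCL2L1 (83 ± 3.73, n = 2) led, and their libraries overlapped. BAX followed at 56.1 ± 4.23 CPM per kb (n = 2), then BID at 25 ± 0.363, BAK1 at 19.5 ± 2.65 and BAD at 17.1 ± 1.28, of which the last 2 overlapped. BBC3 stood at 10.4 ± 1.25, PMAIP1 at 7.52 ± 0.509, BCL2L11 at 5.87 ± 0.129 and BCL2 at 1.89 ± 0.138 CPM per kb. Per kb, BCL2, the founding member of the family, was thus the lowest of the 10 in these cells and in each of the other 4 groups. Its exonic length of 6.62 kb was the longest of the 10. In CPM not divided by length, BCL2 was not the lowest in every group. In HEL controls it stood at 20.2 CPM, above BAK1 (9.64), BBC3 (13.7) and BAD (16.5). In HEL DOT1L KD it stood at 7.52 CPM, above BAK1 (5.2), and in ENL KO at 9.66 CPM, above PMAIP1 (8.29). In HEL controls BCL2L1 led at 99.3 ± 0.27 CPM per kb (n = 2), ahead of MCL1 at 57.8 ± 0.592, BAX at 27.8 ± 2.37, BCL2L11 at 22.6 ± 0.0246, BID at 21.3 ± 0.668 and PMAIP1 at 16.4 ± 1.21. BAD at 13.5 ± 0.475, BBC3 at 6.52 ± 0.271, BAK1 at 4.39 ± 0.379 and BCL2 at 3.05 ± 0.0223 CPM per kb closed the order, and no neighbours overlapped. The HEL order differed from the K562 order mainly in the higher place of BCL2L11 and PMAIP1 and the lower place of BAK1. HEL counts are reads and K562 counts are fragments, so the lines were not tested against each other for level.

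**Figure D1:**
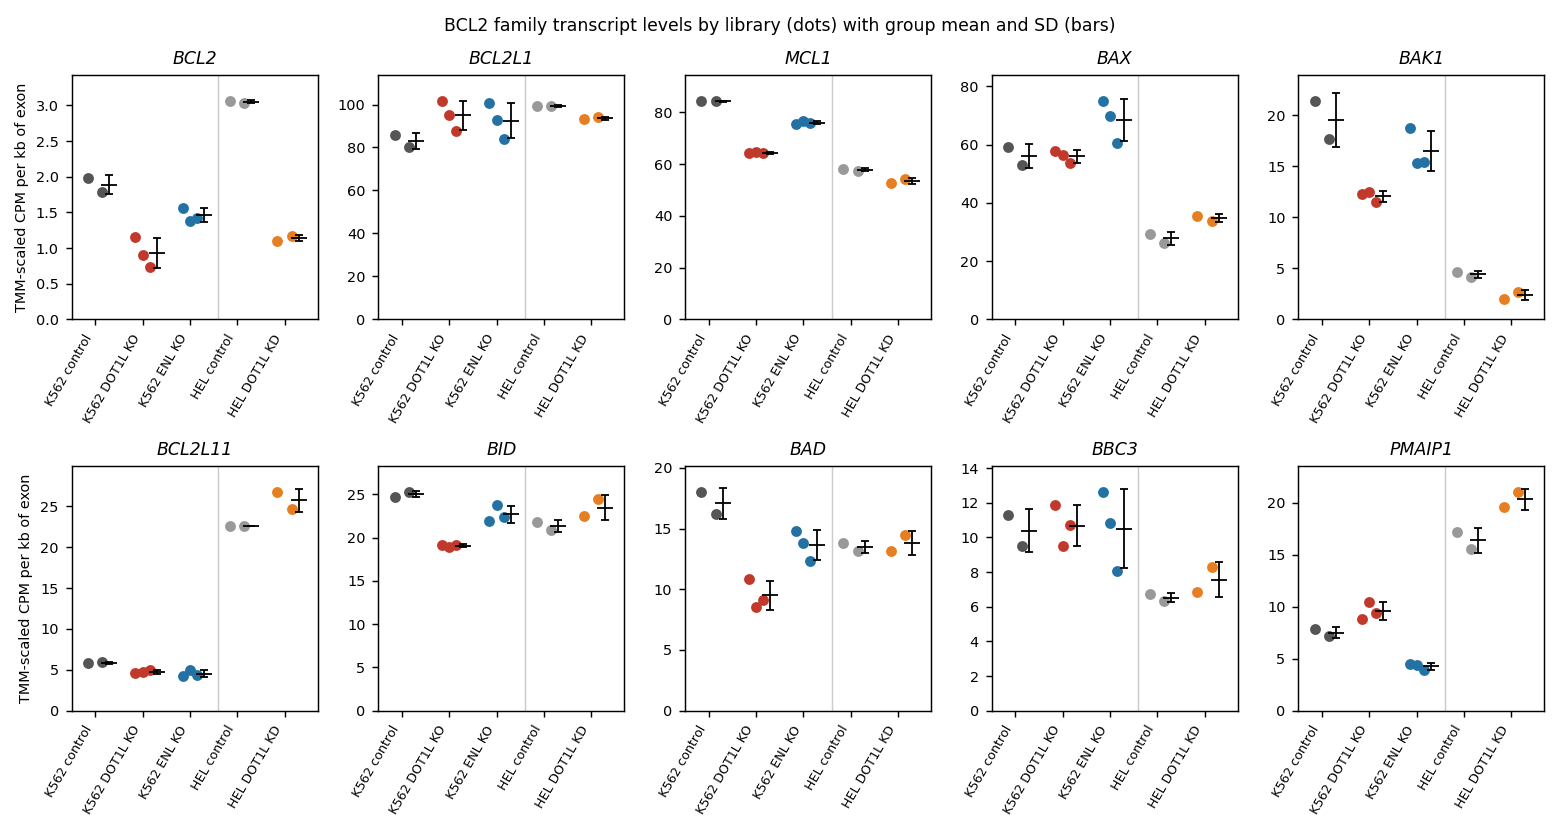
Transcript level of each of the 10 genes, as TMM-scaled CPM per kb of exon on a linear axis from 0, for every library (dots) in the 5 groups, with the group mean and SD (bar, n = 2 or 3). BCL2 is the lowest of the 10 on this scale per kb and is lower in both DOT1L-depleted groups than in their controls. PMAIP1 is above the K562 controls in DOT1L KO and below them in ENL KO.

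In DOT1L KO against K562 control, 7 of the 10 members changed, 6 lower and 1 higher, at an adjusted p under 0.05. All adjusted p-values here come from the quasi-likelihood test of edgeR, with Benjamini-Hochberg adjustment across every gene tested. The background was large, with 51.1% of the 14301 genes tested called in this comparison, 26.9% higher and 24.2% lower. BCL2, MCL1, BAK1, BID, BAD and BCL2L11 fell and PMAIP1 rose. The median log2 fold change of the 10 members was -0.35, against 0.01 over all genes tested. Groups did not overlap for 8 of the 10 members, against 68.1% of all genes tested. BCL2 was the 1 member called with a log2 fold change of at least 1 in size, which 15.8% of all genes tested reached. A median of 10 genes of mixed roles is given as a description.

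In ENL KO against the same control libraries, 5 of the 10 changed, 4 lower (MCL1, BCL2L11, BAD and PMAIP1) and 1 higher (BAX), where 41.0% of all genes tested were called, 18.8% higher and 22.2% lower. The members' median was -0.20, against 0.00 over all genes tested. Groups did not overlap for 7 of the 10, against 59.6% of all genes tested, and 0 members reached a log2 fold change of 1 in size, which 11.0% of genes did. In the direct comparison of DOT1L KO with ENL KO, which uses no control library, 7 of the 10 differed, 6 lower and 1 higher in DOT1L KO, where 60.2% of all genes tested were called, 31.8% higher and 28.3% lower. The members' median there was -0.25, 7 had groups that did not overlap (63.3% of all genes tested), and PMAIP1 was the 1 member past a log2 fold change of 1 (19.2% of genes). In HEL DOT1L KD against control, 8 of the 10 changed, 4 higher (BCL2L11, BAX, BID and PMAIP1) and 4 lower (BCL2, BCL2L1, MCL1 and BAK1), where 55.0% of the 12635 genes tested were called, 27.0% higher and 28.0% lower. The members' median was 0.08, against 0.01 over all genes tested. Groups did not overlap for 9 of the 10 members, against 75.9% of all genes tested, and BCL2 alone among the members passed a log2 fold change of 1 in size, as 5.84% of genes did. For 10 genes these shares lie near the background, so the counts show nothing particular to the family, and the direction was mixed within it in each comparison. The DOT1L KO and ENL KO comparisons share their control libraries. Whether the ENL KO libraries were sequenced in the same run as the other K562 libraries could not be checked. A run difference can therefore not be told apart from the ENL knockout, in the comparison with control or with DOT1L KO.

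**Figure D2:**
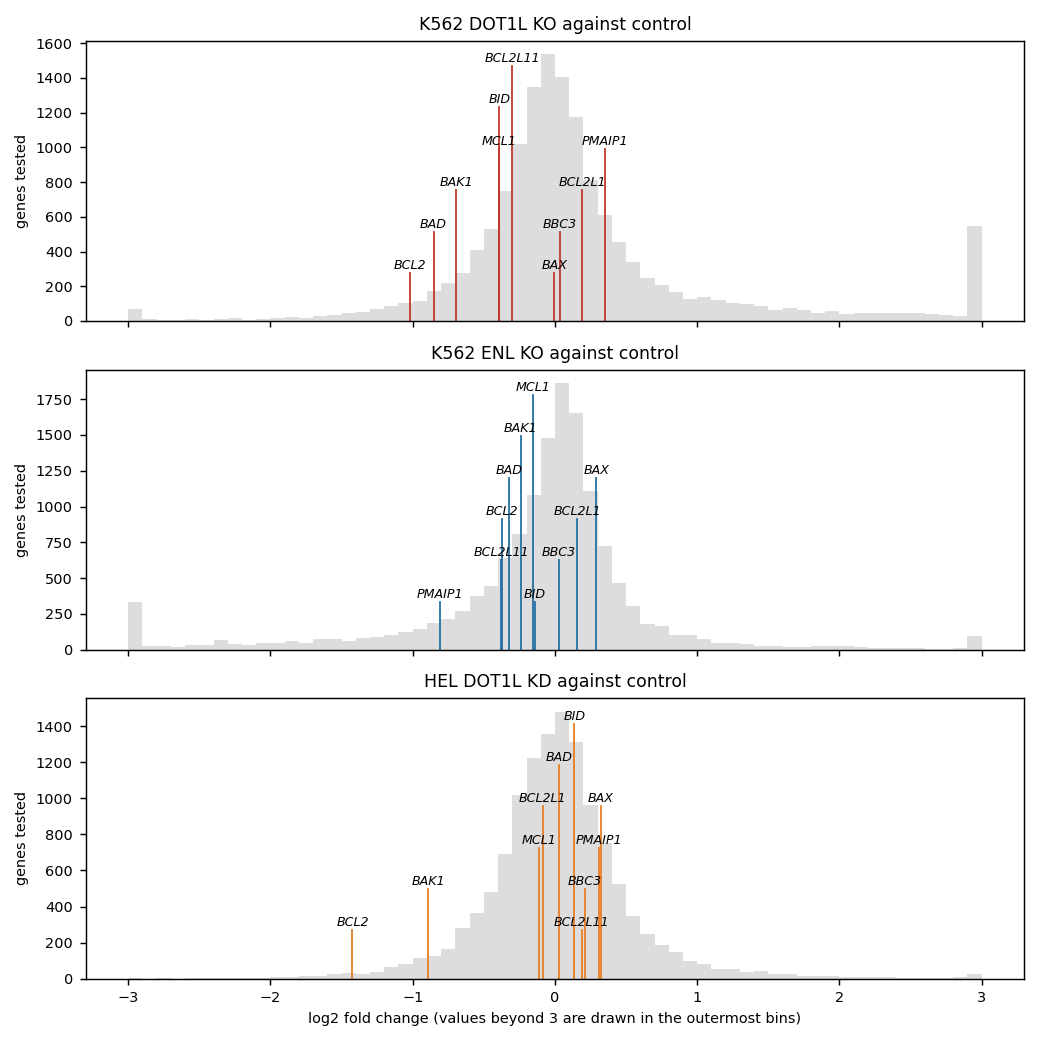
Histograms of the log2 fold change of all genes tested (grey, count of genes) in the 3 comparisons with a control, with a line for each family member at its own value (line heights are staggered for the labels only). BCL2 at -1.02 and -1.42 and BAK1 at -0.69 and -0.89 lie in the left flank in both DOT1L comparisons, and PMAIP1 at -0.81 is the member farthest left in ENL KO.

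Among the guardians, BCL2 fell most. BCL2 (chromosome 18, 63123346 to 63319380, minus strand, GRCh38, 3 merged exons) stood at 13.2 and 11.9 CPM in the K562 controls and at 7.63, 6.01 and 4.83 CPM in DOT1L KO, from 251 to 283 and 102 to 178 fragments. Every DOT1L KO library lay below both controls. The log2 fold change was -1.02 (SE 0.151, 2.03-fold lower, adjusted p = 7.63e-05). In absolute size this was beyond that of 83.7% of genes tested. ENL KO libraries held 10.4, 9.15 and 9.44 CPM, also all below both controls. The log2 fold change was -0.37 (95% interval -0.69 to -0.05), and its adjusted p of 0.06 missed the threshold. That threshold was passed under 7 of 17 other settings, among them the one that counted the identical control columns as separate libraries. In the direct comparison BCL2 was 1.57-fold lower in DOT1L KO than in ENL KO (log2 -0.65, SE 0.143, adjusted p = 0.00139).

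In HEL the same gene went from 20.3 and 20.1 CPM in the controls to 7.32 and 7.73 CPM in DOT1L KD. The groups were far apart relative to the gaps within them, and the log2 fold change was -1.42 (SE 0.123, 2.68-fold lower, adjusted p = 1.87e-14), beyond 97.5% of the genes tested in HEL. BCL2 was thus the member with the largest fall in DOT1L KO and in HEL DOT1L KD. The difference between the lines was -0.38 (95% interval -0.83 to 0.06, adjusted p = 0.173) and did not pass the test of the interaction. In that joint test 38.9% of 15367 genes were called, 19.8% higher and 19.1% lower in the change of HEL than in that of K562. The line, the mode of depletion (knockdown or knockout) and the unit counted (reads or fragments) cannot be told apart in it. The BCL2 interaction passed under 2 of 17 other settings, one of them without DOT1L KO replicate 3, the library lowest for BCL2 (-0.54, adjusted p = 0.03).

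MCL1, a guardian that restrains BAK1 and is itself bound by PMAIP1, was the most even member among the replicates of each K562 group. MCL1 (chromosome 1, 150574551 to 150579738, minus strand) stood at 345 and 344 CPM in the K562 controls, 262, 264 and 262 CPM in DOT1L KO and 308, 313 and 310 CPM in ENL KO. The 3 groups separated fully, with ENL KO between the others. The falls were 1.31-fold in DOT1L KO (log2 -0.39, SE 0.0468, adjusted p = 1.14e-05) and 1.11-fold in ENL KO (log2 -0.15, SE 0.047, adjusted p = 0.0201). The direct comparison gave a log2 difference of -0.24 (adjusted p = 0.000245). The ENL KO call was lost when control 1 (adjusted p = 0.108) or control 2 (adjusted p = 0.0973) was left out, and with no filter on low counts (adjusted p = 0.0548), at log2 fold changes of -0.15 in all 3 cases. In HEL the levels were 238 and 234 CPM against 215 and 221 CPM, a 1.08-fold fall (log2 -0.12, adjusted p = 0.00484) that was not called with upper-quartile scaling (log2 -0.04, adjusted p = 0.326) or without HEL DOT1L KD replicate 1 (log2 -0.10, adjusted p = 0.0914). MCL1 fell less in HEL than in K562, with an interaction of 0.29 (SE 0.0671, adjusted p = 0.00136).

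BCL2L1 was the guardian that did not fall in K562. BCL2L1 (chromosome 20, 31664452 to 31723999, minus strand) stood at 289 and 271 CPM in the controls, 343, 320 and 296 CPM in DOT1L KO and 339, 313 and 283 CPM in ENL KO. Every DOT1L KO library lay above both controls, while ENL KO replicate 3 lay between them. The log2 fold changes were 0.19 in DOT1L KO (95% interval 0.03 to 0.36, adjusted p = 0.0525) and 0.16 in ENL KO (95% interval -0.01 to 0.32, adjusted p = 0.128), neither past the threshold. The value in DOT1L KO lay close to the threshold and passed it under 12 of 17 other settings, for example with DESeq2 (log2 0.20, adjusted p = 0.0431). Among the 12 is the setting that counted the identical control columns as separate libraries. In HEL the order was the opposite, with 334 and 335 CPM in the controls and 314 and 317 CPM in DOT1L KD. That fall of 1.06-fold (log2 -0.09, adjusted p = 0.0207) was not called with upper-quartile scaling (log2 -0.01, adjusted p = 0.776), with library sizes alone (log2 -0.05, adjusted p = 0.183), with DESeq2 (log2 -0.09, adjusted p = 0.092), or without HEL DOT1L KD replicate 1 (adjusted p = 0.145) or 2 (adjusted p = 0.0737). The interaction was -0.26 (SE 0.0825, adjusted p = 0.0159). BCL2L1 shares 1311 exonic bases with ABALON on the opposite strand, for which each library held 15 counts or fewer. The use of strand in counting is not given in the sources used here.

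The make-up of the guardian pool shifted with these changes. BCL2L1 made up 49.8% and 48.3% of the summed guardian level per kb in the K562 controls, 60.9%, 59.2% and 57.5% in DOT1L KO and 56.6%, 54.4% and 52.1% in ENL KO. MCL1 made up 49.1% and 50.6%, then 38.4%, 40.2% and 42%, and then 42.5%, 44.8% and 47.1%. So the pair went from near equality in wild type K562 to an excess of BCL2L1 in every knockout library. The ratio of BCL2L1 to BCL2 per kb was 43.1 and 44.8 in the controls and 88.3, 105 and 121 in DOT1L KO. In ENL KO it was 64.1, 67.2 and 58.9. In HEL it was 32.3 and 32.8 in the controls and 84.3 and 80.6 in DOT1L KD. No depleted library overlapped a control library in this ratio in either line. These and the other ratios and sums are descriptions and were not tested.

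**Figure D3:**
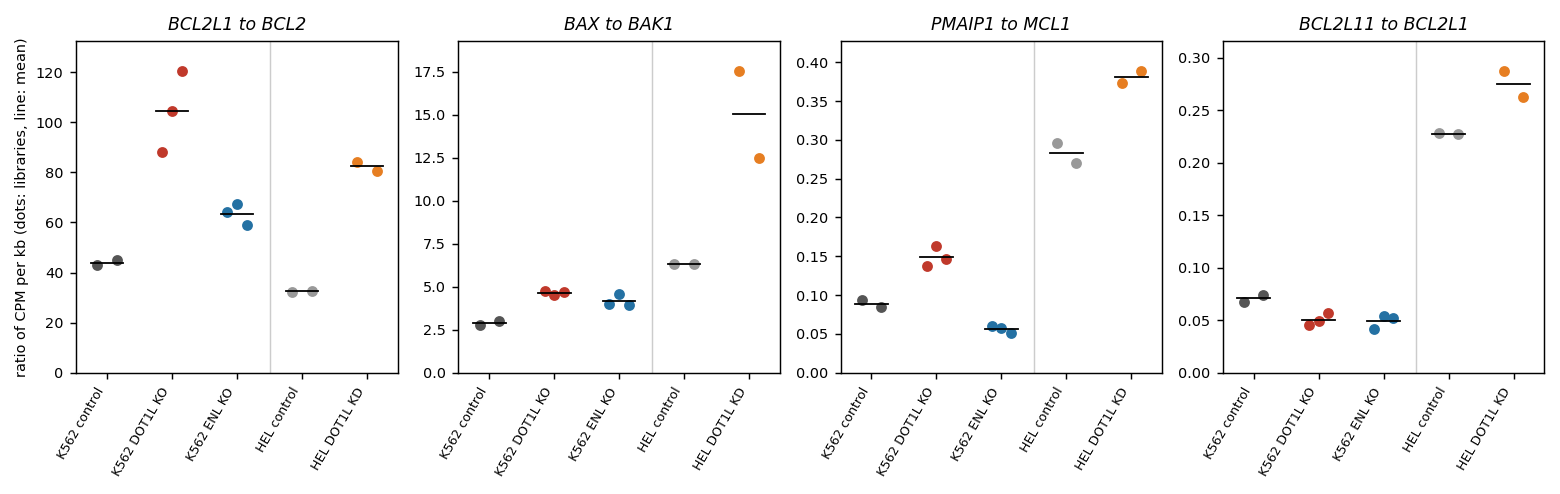
Ratios of transcript level per kb between pairs of members for every library (dots) with the group mean (line), on linear axes from 0. The ratio of BCL2L1 to BCL2 is higher in each depleted group than in its control, and that of PMAIP1 to MCL1 is higher in DOT1L KO and lower in ENL KO than in the K562 control.

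The effectors BAX and BAK1, which form the pore and can stand in for each other, moved apart. BAK1 (chromosome 6, 33572546 to 33580293, minus strand) stood at 46.9 and 38.7 CPM in the K562 controls and at 26.9, 27.4 and 25.1 CPM in DOT1L KO. The knockout libraries lay close together below both controls, and the fall was 1.62-fold (log2 -0.69, SE 0.105, adjusted p = 9.47e-05). ENL KO libraries held 41.1, 33.5 and 33.9 CPM, of which the first lay between the controls, with a log2 fold change of -0.24 (95% interval -0.47 to -0.02, adjusted p = 0.0823). BAK1 was lower in DOT1L KO than in ENL KO (log2 -0.45, SE 0.0962, adjusted p = 0.00113). In HEL it went from 10.2 and 9.05 CPM to 4.45 and 5.94 CPM, a 1.86-fold fall (log2 -0.89, SE 0.167, adjusted p = 1.00e-05). These HEL values rest on 114 to 128 reads in the controls and 56 to 73 reads in DOT1L KD. The interaction for BAK1 was -0.18 (95% interval -0.60 to 0.24, adjusted p = 0.531).

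BAX (chromosome 19, 48954860 to 48961798, plus strand) stood at 77.1 and 69.3 CPM in the K562 controls and at 75.6, 73.6 and 69.9 CPM in DOT1L KO, which lay wholly within the controls. Its log2 fold change there was -0.00 (95% interval -0.18 to 0.18, adjusted p = 0.976). In ENL KO BAX rose 1.22-fold, to 97.9, 91.1 and 79.2 CPM, all above both controls (log2 0.29, SE 0.0845, adjusted p = 0.0141). The call in ENL KO was lost without control 2 (log2 0.22, adjusted p = 0.154). BAX was lower in DOT1L KO than in ENL KO (log2 -0.29, adjusted p = 0.004). In HEL it rose 1.25-fold, from 38.4 and 34.1 CPM to 46.5 and 44.2 CPM (log2 0.32, SE 0.0712, adjusted p = 0.000121). The change in HEL exceeded that in K562 by 0.35 (SE 0.108, adjusted p = 0.0144). That interaction was not called without K562 control 1 (adjusted p = 0.0611), HEL control 2 (adjusted p = 0.126) or HEL DOT1L KD replicate 1 (adjusted p = 0.0771).

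The ratio of BAX to BAK1 per kb was 2.76 and 3.01 in the K562 controls, 4.73, 4.52 and 4.67 in DOT1L KO and 4, 4.57 and 3.93 in ENL KO. In HEL it went from 6.31 and 6.32 to 17.6 and 12.5. Each depleted library lay above its controls. BAK1 fell in DOT1L KO, BAX rose in ENL KO, and both changes were called in HEL. The summed effector level per kb was 80.5 and 70.8 in the K562 controls, 70.2, 68.9 and 65 in DOT1L KO and 93.8, 85 and 76.1 in ENL KO. These sums overlapped between ENL KO and control and lay just apart between DOT1L KO and control.

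PMAIP1, whose product NOXA binds MCL1 and promotes its breakdown, was the member with opposite changes in the knockouts. PMAIP1 (chromosome 18, 59899960 to 59904306, plus strand) stood at 15.3 and 13.9 CPM in the K562 controls, 17.1, 20.3 and 18.1 CPM in DOT1L KO and 8.74, 8.57 and 7.56 CPM in ENL KO. The 3 groups did not overlap, with DOT1L KO above and ENL KO below the controls. It rose 1.28-fold in DOT1L KO (log2 0.35, SE 0.105, adjusted p = 0.0128) and fell 1.75-fold in ENL KO (log2 -0.81, SE 0.114, adjusted p = 7.78e-05). The rise in DOT1L KO was not called without control 2 (log2 0.28, adjusted p = 0.124) or DOT1L KO replicate 2 (log2 0.28, adjusted p = 0.0564), while the fall in ENL KO passed under every one of the 17 other settings. In the direct comparison PMAIP1 was 2.23-fold higher in DOT1L KO than in ENL KO (log2 1.16, SE 0.101, adjusted p = 3.21e-07), the largest difference of any member. In HEL it rose 1.24-fold, from 33.4 and 30.1 CPM to 38 and 40.8 CPM (log2 0.31, SE 0.076, adjusted p = 0.000478). The change in HEL differed from that in K562 by -0.02 (95% interval -0.31 to 0.27, adjusted p = 0.97).

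Set against its partner MCL1, PMAIP1 stood at 0.0932 and 0.085 of the MCL1 level per kb in the K562 controls. The ratio was 0.138, 0.163 and 0.146 in DOT1L KO and 0.0598, 0.0578 and 0.0514 in ENL KO. In HEL it was 0.296 and 0.271 in the controls and 0.373 and 0.389 in DOT1L KD. In each DOT1L-depleted library of both lines this ratio lay above all controls of its line, and in each ENL KO library below them.

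BAD, a BH3-only protein that binds BCL2 and BCL2L1 and is controlled by phosphorylation, fell in both knockouts. BAD (chromosome 11, 64269828 to 64284704, minus strand) stood at 22 and 19.8 CPM in the K562 controls, 13.3, 10.4 and 11.1 CPM in DOT1L KO and 18.1, 16.9 and 15.1 CPM in ENL KO, so that the 3 groups did not overlap. The fall was 1.81-fold in DOT1L KO (log2 -0.85, SE 0.115, adjusted p = 3.55e-05) and 1.25-fold in ENL KO (log2 -0.32, SE 0.115, adjusted p = 0.0388). The ENL KO call was lost when any of 5 libraries was left out, control 1 (log2 -0.24, adjusted p = 0.259), control 2 (adjusted p = 0.0598), ENL KO replicate 2 (adjusted p = 0.0742) or 3 (adjusted p = 0.105), or DOT1L KO replicate 3 (adjusted p = 0.052). In the direct comparison BAD was lower in DOT1L KO (log2 -0.53, adjusted p = 0.000746). In HEL the levels were 16.9 and 16.1 CPM against 16.1 and 17.7 CPM, which overlapped, with a log2 fold change of 0.03 (95% interval -0.18 to 0.25, adjusted p = 0.823). The interaction was 0.91 (SE 0.167, adjusted p = 0.000174), the largest of any member. BAD shares 128 exonic bases with GPR137 on the opposite strand, and their reads could be mixed there if counting ignored strand.

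BID links death receptors to mitochondria after caspase 8 cuts it. BID (chromosome 22, 17734140 to 17774665, minus strand) stood at 65.8 and 67.2 CPM in the K562 controls, 50.9, 50.2 and 51 CPM in DOT1L KO and 58.3, 63.3 and 59.4 CPM in ENL KO. Both knockouts lay below the controls. The fall in DOT1L KO was 1.31-fold (log2 -0.39, SE 0.0619, adjusted p = 0.000141), and the value in ENL KO was -0.14 (95% interval -0.27 to -0.01, adjusted p = 0.0908). The direct comparison gave -0.25 (adjusted p = 0.00162). HEL went the other way, from 58 and 55.5 CPM to 59.7 and 65.1 CPM (log2 0.14, SE 0.0585, adjusted p = 0.0439). This small rise was not called with DESeq2 (adjusted p = 0.293), RLE size factors (adjusted p = 0.0535), no filter on low counts (adjusted p = 0.162), or without HEL control 2 (log2 0.10, adjusted p = 0.233) or HEL DOT1L KD replicate 2 (log2 0.07, adjusted p = 0.441). The interaction, 0.55 (SE 0.0914, adjusted p = 5.89e-05), was called under every other setting.

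BCL2L11, whose product BIM binds all guardians and can activate BAX and BAK1, showed the same split between lines. BCL2L11 (chromosome 2, 111120914 to 111168445, plus strand, 12 merged exons) stood at 35.9 and 37 CPM in the K562 controls, 28.5, 29.1 and 31.1 CPM in DOT1L KO and 26.1, 31 and 27 CPM in ENL KO. All knockout libraries lay below both controls, and the knockouts overlapped each other. The falls were 1.23-fold in DOT1L KO (log2 -0.30, SE 0.0857, adjusted p = 0.00968) and 1.3-fold in ENL KO (log2 -0.38, SE 0.087, adjusted p = 0.00353), with a direct difference of 0.08 (95% interval -0.10 to 0.25, adjusted p = 0.433). The DOT1L KO call was lost without control 2 (log2 -0.28, adjusted p = 0.0696). In HEL BCL2L11 rose 1.14-fold, from 140 and 141 CPM to 166 and 154 CPM (log2 0.19, SE 0.0417, adjusted p = 0.000139). The interaction was 0.51 (SE 0.0883, adjusted p = 9.15e-05). Per kb, BCL2L11 in HEL stood at 0.228 and 0.227 of the BCL2L1 level in the controls and 0.287 and 0.263 in DOT1L KD, against 0.0675 and 0.0742 in K562 controls.

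BBC3, whose product PUMA binds all guardians, did not pass the test in any comparison. BBC3 (chromosome 19, 47220822 to 47232766, minus strand) stood at 23.6 and 19.9 CPM in the K562 controls, 24.8, 19.9 and 22.4 CPM in DOT1L KO and 26.4, 22.6 and 16.9 CPM in ENL KO, and all 3 groups overlapped. Its log2 fold changes were 0.04 (95% interval -0.29 to 0.36, adjusted p = 0.864) and 0.03 (95% interval -0.30 to 0.36, adjusted p = 0.914), intervals that leave room for changes in either direction. In HEL it stood at 14.1 and 13.3 CPM against 14.3 and 17.3 CPM (log2 0.21, 95% interval -0.02 to 0.45, adjusted p = 0.123). With upper-quartile scaling (log2 0.28, adjusted p = 0.0354) or without HEL DOT1L KD replicate 1 (log2 0.34, adjusted p = 0.0349) the HEL value passed.

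**Figure D4:**
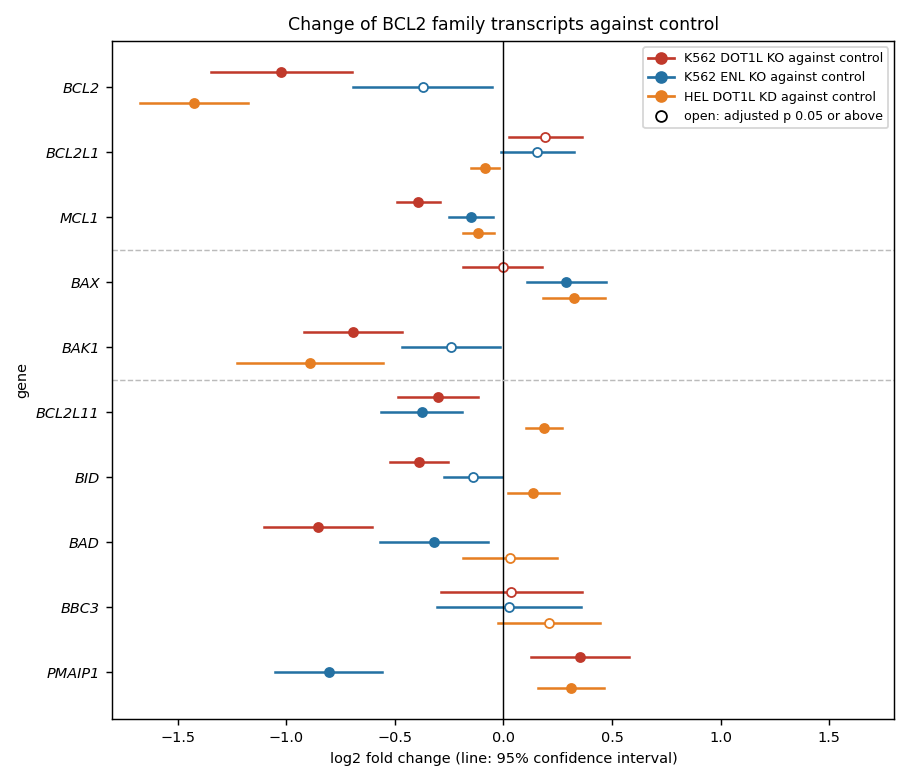
The log2 fold change of each member with its 95% confidence interval in DOT1L KO (red) and ENL KO (blue) against K562 control and in HEL DOT1L KD against control (orange), with filled points at an adjusted p under 0.05 and dashed lines between guardians, effectors and BH3-only proteins. BCL2, MCL1 and BAK1 fall in both DOT1L comparisons, and PMAIP1 points in opposite directions in the knockouts. BID and BCL2L11 lie left of 0 in both K562 knockouts and right of 0 in HEL, with the point of BID open in ENL KO. BAD lies left of 0 in both K562 knockouts, and its open point in HEL, at 0.03, has an interval that spans 0.

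As groups by role, the 3 guardians gave 2 lower calls and 0 higher in DOT1L KO, 1 lower and 0 higher in ENL KO and 3 lower in HEL. The 5 BH3-only genes gave 3 lower and 1 higher in DOT1L KO, 3 lower and 0 higher in ENL KO, and 0 lower and 3 higher in HEL. Over all genes tested 51.1%, 41.0% and 55.0% were called in these comparisons, so counts over so few genes show nothing particular to a role. For BCL2L11, BID and BAD the interaction itself passed. For the BH3-only genes BBC3 (0.20, adjusted p = 0.433) and PMAIP1 (-0.02, adjusted p = 0.97) it did not. The summed BH3-only level per kb was 67.7 and 64.1 in K562 controls, 55.3, 52.1 and 53.4 in DOT1L KO and 58, 57.8 and 51 in ENL KO. In HEL it was 82.2 and 78.5 in the controls and 88.8 and 93 in DOT1L KD. The guardian sum was 172 and 166 in K562 controls, 167, 161 and 153 in DOT1L KO and 178, 171 and 161 in ENL KO, which overlapped. In HEL it was 160.4 and 160 in the controls and 147 and 149 in DOT1L KD. With TMM scaling, guardian and BH3-only sums thus moved in opposite directions in HEL. Most of the guardian fall there came from BCL2L1 and MCL1. With upper-quartile scaling their log2 changes were -0.01 and -0.04, so that fall depends on the scaling. Only the BH3-only sum left the control range in both K562 knockouts. The interactions that passed were 6 of 10, 5 with the higher change in HEL (MCL1, BAX, BCL2L11, BID and BAD) and 1 with the lower (BCL2L1), against 38.9% of all genes tested, 19.8% higher and 19.1% lower.

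Across the 8 distinct K562 libraries, MCL1 and BID were each the member most like the other in pattern (Pearson r of log2 CPM 0.983). The same held for BCL2 and BAD (0.960), and the member most like BAK1 was BAD (0.939). The gene most like each member among 10240 genes was MEX3C for BCL2 (0.985), ALDH1A2 for MCL1 (0.997), NDUFB9 for BCL2L1 (0.975), TAF10 for BAX (0.993) and MOGS for BAK1 (0.990). For the BH3-only genes it was HOXB2 for BCL2L11 (0.970), MED25 for BID (0.992), METTL16 for BAD (0.996), AGO1 for BBC3 (0.976) and PPA2 for PMAIP1 (0.997). With 8 libraries in 3 groups such values are common, and 764 genes exceeded 0.9 with PMAIP1 and 22 with BBC3. In all 3 K562 groups library 1 was the highest for BCL2, BCL2L1, BAX, BAD and BBC3, a shared deviation among replicates that goes into these correlations.

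Relatives and partners of the family were counted for context. Of the 14 other BCL2 relatives 8 were tested, with 1 higher and 4 lower in DOT1L KO, 1 higher and 1 lower in ENL KO, and 4 higher and 1 lower in HEL. Over all genes tested 26.9% were higher and 24.2% lower in DOT1L KO, 18.8% and 22.2% in ENL KO, and 27.0% and 28.0% in HEL. Counts over so few genes are descriptions. BMF, a BH3-only gene linked to the cytoskeleton, rose from 2.2 ± 0.504 CPM (SD, n = 2) to 13.1 ± 1.04 CPM (n = 3) in DOT1L KO (log2 2.56, adjusted p = 1.89e-08), and stood at 1.78 CPM in ENL KO (log2 -0.32, adjusted p = 0.253). BOK, a relative of BAX and BAK1, fell from 16.1 ± 1.33 CPM (n = 2) to 6.06 ± 0.317 CPM (n = 3) in DOT1L KO (log2 -1.41, adjusted p = 2.64e-06) and to 10.3 ± 2.13 CPM (n = 3) in ENL KO (log2 -0.63, adjusted p = 0.00281). BMF thus changed more in DOT1L KO than any of the 10 members did. The other named relatives were BCL2L12, which rose in ENL KO (log2 0.29, adjusted p = 0.00138) and in HEL (log2 0.35, adjusted p = 0.00106), and BNIP3, a mitochondrial protein of mitophagy, which rose in HEL (log2 0.41, adjusted p = 1.04e-15) and fell in DOT1L KO (log2 -1.40, adjusted p = 2.82e-09).

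Downstream of the pore, 13 genes of the apoptosome and caspases were tested, with 4 higher and 4 lower in DOT1L KO, 2 higher and 3 lower in ENL KO and 4 higher and 6 lower in HEL. The shares of all genes tested that were called in these comparisons, 51.1%, 41.0% and 55.0%, are the background for each list below too. CFLAR, which blocks caspase 8, fell in DOT1L KO (log2 -0.66, adjusted p = 3.46e-07) and rose in ENL KO (log2 0.22, adjusted p = 0.0065) and in HEL (log2 0.17, adjusted p = 0.00171). CASP8, the caspase that cuts BID, rose in HEL (log2 0.70, adjusted p = 3.75e-14), and CASP9, the caspase of the apoptosome, rose in ENL KO (log2 0.27, adjusted p = 0.022). Among 7 tested inhibitors of apoptosis and their antagonists, 3 rose and 2 fell in DOT1L KO, 0 rose and 2 fell in ENL KO, and 3 rose and 3 fell in HEL. HTRA2, a mitochondrial protease, rose in DOT1L KO (log2 0.50, adjusted p = 0.00015) and fell in HEL (log2 -0.17, adjusted p = 0.0051), and BIRC6 fell in DOT1L KO (log2 -0.22, adjusted p = 0.0274). BIRC5, or survivin, fell in DOT1L KO (log2 -0.16, adjusted p = 0.03) and in ENL KO (log2 -0.16, adjusted p = 0.0301) and rose in HEL (log2 0.19, adjusted p = 3.59e-05), where XIAP fell (log2 -0.17, adjusted p = 0.0298). Of 10 partners and turnover factors, 1 rose and 3 fell in DOT1L KO, 1 rose and 1 fell in ENL KO, and 5 rose and 3 fell in HEL. HUWE1, a ubiquitin ligase for MCL1, fell in DOT1L KO (log2 -0.34, adjusted p = 0.00281) and in ENL KO (log2 -0.37, adjusted p = 0.0021) and rose in HEL (log2 0.13, adjusted p = 0.000278).

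Of 11 known regulators of member transcription, 5 rose and 5 fell in DOT1L KO and 2 rose and 3 fell in ENL KO, and of the 10 tested in HEL 2 rose and 3 fell. The shares of all genes tested that were called in these comparisons were 51.1%, 41.0% and 55.0%. STAT5A, which acts on BCL2L1 in erythroid cells, fell from 873 ± 13.5 CPM (n = 2) to 353 ± 6.19 CPM in DOT1L KO (n = 3, log2 -1.31, adjusted p = 1.82e-10) and to 547 ± 17.1 CPM in ENL KO (n = 3, log2 -0.67, adjusted p = 1.46e-07). BCL2L1 did not fall in either knockout, as given above, and whether STAT5A acts on BCL2L1 in these cells was not tested. E2F1 rose in all 3 comparisons with a control, by 0.99 in DOT1L KO (adjusted p = 3.69e-06), 0.51 in ENL KO (adjusted p = 0.00177) and 0.31 in HEL (adjusted p = 1.32e-05) on the log2 scale. STAT5B fell in DOT1L KO (log2 -0.49, adjusted p = 2.03e-06) and in HEL (log2 -0.31, adjusted p = 2.69e-12).

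**Figure D5:**
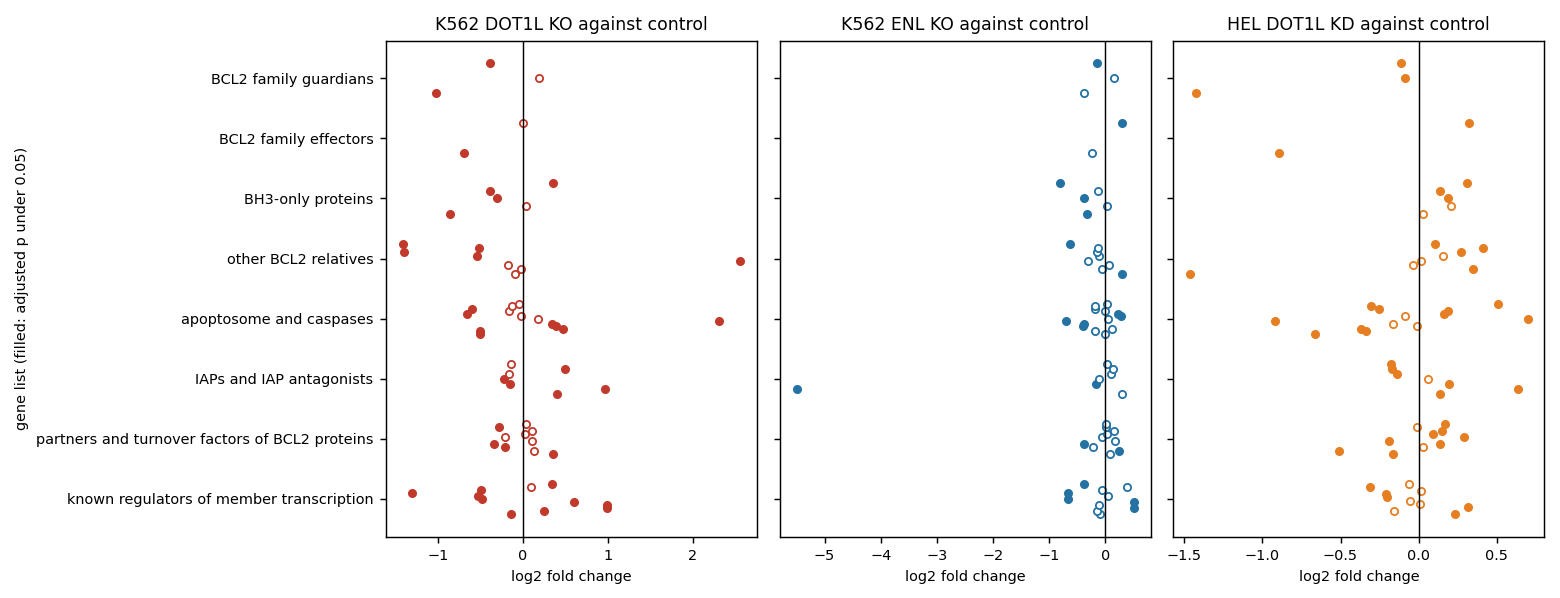
The log2 fold change of every tested gene in 8 lists of the family and the genes around it, in the 3 comparisons with a control, with filled points at an adjusted p under 0.05 and separate axes per comparison. Changes run in both directions in most lists, and the point far left in ENL KO is BIRC3, named after its value was seen, which stood at 1.05 CPM in controls and at 0.0161 CPM in ENL KO.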

How the data were processed

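Polyadenylated RNA was sequenced, and 13 RNA-seq columns (12 distinct libraries) were used. The other 61 of 74 samples were not analysed here. The authors deposited whole-number counts per gene, fragments for K562 and reads for HEL, per the file headers, with exon positions and exonic length. The submitters' processing notes name fastp 0.13.1, HISAT2 2.1.0, Bowtie2 2.3.4.1, featureCounts 1.6.1, deepTools and the builds hg38 and hg19, without their roles. Listed positions overlapped RefSeq GRCh38.p14 for 99.9% of 26314 genes matched by symbol on the same chromosome, and coordinates are given on GRCh38 as listed. Use of strand in counting is not given in the sources used here.

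Groups follow the labels. K562 control columns 2 and 3 were identical and entered once. Genes were filtered with filterByExpr (minimum count 10, total 15), scaled with TMM and tested with edgeR 4.0.16 (R 4.3.3) by glmQLFit and glmQLFTest, with Benjamini-Hochberg adjustment over all genes and a threshold of 0.05. The K562 groups shared 1 fit, HEL had its own, and a joint fit gave the interaction. The common biological coefficient of variation was 6.34% in K562 and 1.83% in HEL. Intervals of log2 fold changes are 95% intervals from the fit. Fits were tested on simulated counts. Depth limits low genes: a count of 0 allows up to 3 counts, or 0.103 to 0.247 CPM, for counting error only. Alternatives were other scalings, filters, DESeq2 1.42.0, a replicate block and leaving out each library.

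The members and gene lists were chosen with earlier results of these data known. Named genes were all members, the targeted genes, the largest called increase and decrease of each list with a mean of at least 5 CPM and groups that do not overlap, and the gene most alike in pattern (Pearson r of log2 CPM plus 0.5) to each member. Lists covered other BCL2 relatives, caspases and apoptosome, inhibitors of apoptosis, partners, transcriptional regulators, and erythroid, megakaryocytic, lymphocyte, monocyte, and fibroblast and epithelial markers. Protein sequences were not used here, and values of some list genes are not reported here.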

Additional observations from a re-analysis of the deposited data

Results flagged for a closer look

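For 6 of the 10 members the change upon DOT1L depletion differed between HEL and K562 by the test of the interaction (HEL change minus K562 change on the log2 scale, quasi-likelihood test of edgeR, Benjamini-Hochberg adjusted), where 38.9% of all genes tested differed. BAD differed by 0.91 (adjusted p = 0.000174), BID by 0.55 (adjusted p = 5.89e-05) and BCL2L11 by 0.51 (adjusted p = 9.15e-05), all lower in every DOT1L KO library than in the K562 controls, and for BCL2L11 and BID higher in both HEL DOT1L KD libraries than in the HEL controls. MCL1 differed by 0.29 (adjusted p = 0.00136), having fallen in both lines and less so in HEL. BAX differed by 0.35 (adjusted p = 0.0144) and BCL2L1 by -0.26 (adjusted p = 0.0159), and leaving out 1 of several libraries ended either call. The summed erythroid markers were higher after DOT1L depletion in both lines. Cell line, knockdown against knockout, and read against fragment counting cannot be told apart in these interactions.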

How the results depend on the processing

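With 2 or 3 libraries a group, small changes of single members depend on 1 library. Of 790 alternative log2 fold changes of members, 726 stayed on their side of the threshold, 32 gained a call and 32 lost one, and no called value changed sign. When a log2 fold change of at least 1 was also asked, the members called went to 1 in DOT1L KO (BCL2), 0 in ENL KO, 1 between the knockouts (PMAIP1), 1 in HEL (BCL2) and 0 in the interaction, against 15.8%, 11.0%, 19.2%, 5.84% and 12.7% of all genes tested. Leaving out each library in turn gave 5 to 8 members called in DOT1L KO, 3 to 7 in ENL KO (3 without K562 control 1 and 3 without K562 control 2, where 27.9% and 29.5% of all genes were called), 7 between the knockouts, 6 to 8 in HEL and 4 to 7 in the interaction. An arm left with 1 library is assumed to vary like the others. Keeping the identical control columns apart, which counts the same library again, gave 8 members in ENL KO, where 49.6% of all genes were called. With the replicate number as a block, 8 members were called in DOT1L KO, 8 in ENL KO, 7 between the knockouts, 8 in HEL and 7 in the interaction, beside 58.3%, 49.1%, 67.2%, 54.6% and 44.4% of all genes. Under that block BCL2 passed in ENL KO (log2 -0.30, adjusted p = 0.0441) and in the interaction (-0.52, adjusted p = 0.014). The numbers were not taken as pairing the libraries. Deviations of same-numbered knockout libraries correlated at 0.579, 0.0782 and 0.278 over 10241 genes, and those of HEL at -0.03. With the same-numbered K562 controls the values were 0.389 and 0.264 in DOT1L KO and 0.398 and 0.101 in ENL KO. All same-numbered K562 values were thus positive. Not every library correlated best with its own number. In HEL, DESeq2 called 4561 genes where edgeR called 6951, and upper-quartile scaling moved the share of calls that were higher from 49.1% to 61.4%. Under that scaling the median of all genes was 0.09, so small HEL changes of BCL2L1 and MCL1 depend on the scaling.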
